A study of Mus musculus with 2 samples.

Results

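Receptors for glutamate, GABA and glycine are the proteins through which neurons, and also neural progenitors and glia, sense the main fast transmitters of the brain. Their genes were followed in mouse neural stem cells, which renew themselves and form neurons and glia, after an siRNA against Chd4. Chd4 is the motor protein of NuRD, a complex that remodels chromatin. Genes were taken by their symbols, which gave 47 of the 17359 genes of the expression table. They comprise 46 receptor subunit genes and Grid2ip, a scaffold gene of the delta receptors whose symbol the same pattern takes. The siChd4 group was neural stem cells transfected with a Chd4 siRNA (genotype given as Chd4 knockdown, 1 library), and the siSCR group was neural stem cells transfected with a scrambled siRNA (genotype given as control, 1 library). The series is about the nucleoporin Seh1 in neurogenesis. The age and source of the cells, whether they are a line or a primary culture, and the dose and time of the siRNA are not stated in the labels.

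Ionotropic glutamate receptors are cation channels that form as tetramers. AMPA receptors carry fast excitation, kainate receptors act on both sides of the synapse, and NMDA receptors need glutamate with glycine or serine and pass calcium. Metabotropic glutamate receptors and GABA-B receptors act through G proteins. GABA-A and glycine receptors are pentameric chloride channels, which excite immature cells and inhibit mature neurons. In stem and progenitor cells, GABA and glutamate receptors are known to influence division, migration and maturation.

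The libraries held 20072009 estimated counts in siChd4 and 19816811 in siSCR. Chd4 itself was at 203 TPM (transcript abundance scaled to the same total in each library, a level per transcript length) in siChd4 against 249.5 TPM in siSCR. Its fold was 0.815, with a 95% counting interval of 0.795 to 0.836. The direction follows the label and the difference was small. All 10 neural stem and radial glia markers were present, at 4.72 to 7004 TPM in siChd4 and 8.37 to 6105 TPM in siSCR. With 1 library per group there is no spread between replicates and no test between conditions. Intervals are exact Clopper-Pearson intervals of the counts, and they cover counting error only. Every difference is between these libraries.

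Glutamate receptor genes were mostly higher in siChd4, and GABA-A genes went both ways. Of the 18 ionotropic glutamate receptor genes, 16 had a TPM fold above 1, against 5 of the 9 GABA-A genes with at least 20 counts. Over all genes with that many counts, 6210 of 13691 had a fold above 1. Among the highest folds were those of Grin1 and Grik3, and the lowest were those of Grin2b and Gabrg1. A mean TPM of 1 or more was reached by 29 of the 47 genes. Of the 29, 5 were at least 1.5-fold higher in siChd4 on the TPM plus 1 scale, among them Grin1, Grik3, Gria4 and Grik4. This is 5 of 29, beside 6.75% of all 12882 genes under the same rule. Grin2b and Gabrg1 were at least 1.5-fold lower, 2 of 29 beside 4.47% of all genes. The median log2 ratio of the 29 was 0.27 and that of all genes was -0.04. Since that scale understates the differences of low genes, the TPM fold was also read with its counting interval over the 35 genes that had at least 20 counts in both libraries together. Past 1.5-fold with the interval on the same side of 1 were 8 higher genes, beside 8.46% of all 13691 genes, and 2 lower genes, beside 5.54%. By both rules the share of lower receptor genes was near that of all genes. The additional higher genes were Gabbr2, Grin2d and Grid2ip.

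**Figure D1:**
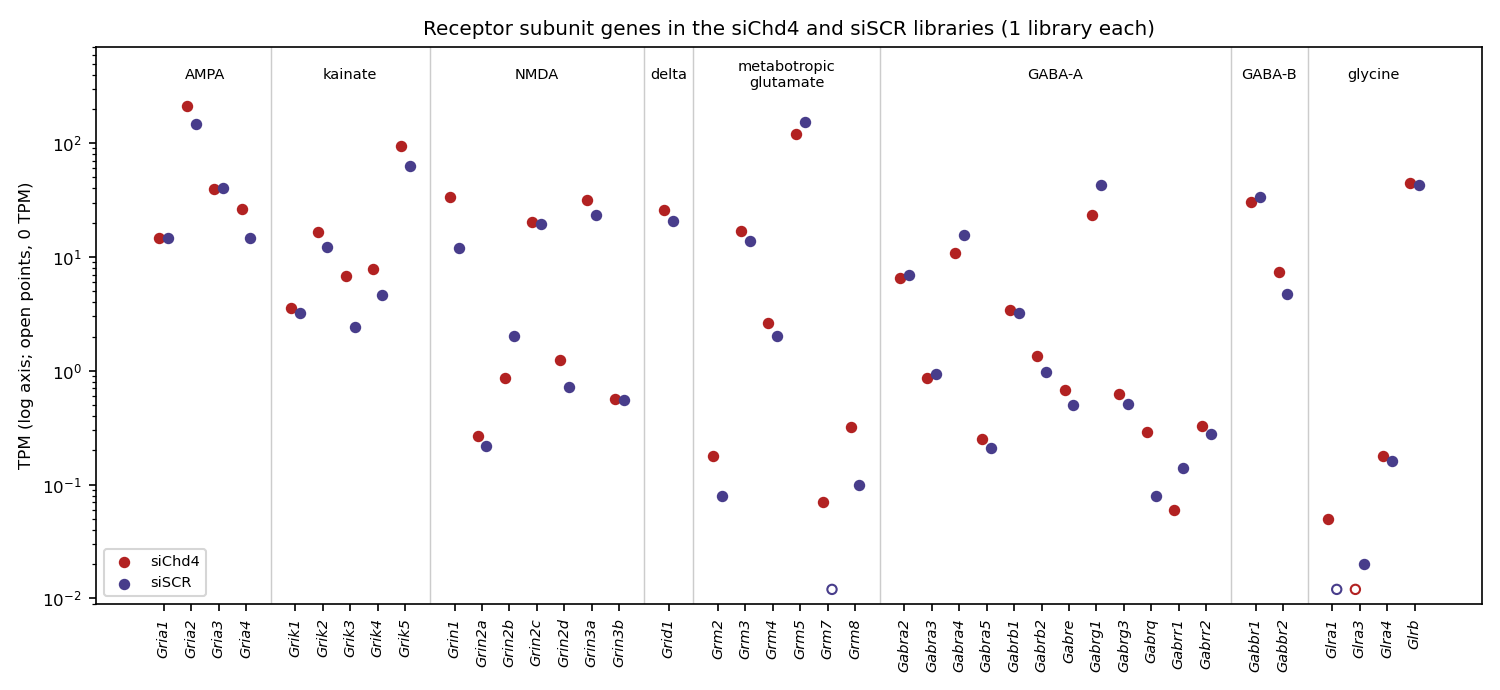
TPM of 41 receptor genes in siChd4 (red) and siSCR (dark blue), on a log axis and grouped by receptor class; each point is 1 library, and open points mark 0 TPM. Gria2, Grm5 and Grik5 hold the top of the range in both libraries, and Grin1 stands well apart between them.

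The promoters of the genes past the 1.5-fold limit are shown because these genes differed most. The set of RefSeq promoters used here (GRCm38.p6) held 32 of the 47 genes. Of the 7 genes past the limit, 5 had an entry, each with a single start. The sequences are the 250 bases before the start, read 5′ to 3′ on the strand of the gene, and they follow in the order of their folds. They lie at chr2:25319188-25319437 (minus strand, Grin1), chr4:125490446-125490695 (plus, Grik3), chr9:4796235-4796484 (minus, Gria4), chr9:42944372-42944621 (minus, Grik4) and chr5:70842618-70842867 (minus, Gabrg1). Capitals mark matches, on either strand, to the GC box GGGCGG, to the TATA box TATAAA, or to the cores CAGCACC and GGACAG of the left and right arms of RE1, the element bound by the repressor REST.
Grin1: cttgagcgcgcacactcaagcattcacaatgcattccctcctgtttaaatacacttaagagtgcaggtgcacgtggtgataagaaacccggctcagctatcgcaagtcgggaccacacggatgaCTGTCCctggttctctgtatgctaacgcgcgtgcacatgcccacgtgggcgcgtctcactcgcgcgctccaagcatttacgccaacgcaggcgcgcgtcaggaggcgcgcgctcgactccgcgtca
Grik3: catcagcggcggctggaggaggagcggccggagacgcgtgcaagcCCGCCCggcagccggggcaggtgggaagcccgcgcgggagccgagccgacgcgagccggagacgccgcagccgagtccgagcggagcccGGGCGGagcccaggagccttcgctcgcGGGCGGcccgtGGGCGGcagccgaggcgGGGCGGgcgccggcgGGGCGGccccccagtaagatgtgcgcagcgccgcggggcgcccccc
Gria4: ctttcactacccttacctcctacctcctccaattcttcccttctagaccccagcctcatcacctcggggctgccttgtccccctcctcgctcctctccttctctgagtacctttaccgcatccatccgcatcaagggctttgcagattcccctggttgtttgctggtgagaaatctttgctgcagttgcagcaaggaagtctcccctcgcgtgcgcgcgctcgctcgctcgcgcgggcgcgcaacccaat
Grik4: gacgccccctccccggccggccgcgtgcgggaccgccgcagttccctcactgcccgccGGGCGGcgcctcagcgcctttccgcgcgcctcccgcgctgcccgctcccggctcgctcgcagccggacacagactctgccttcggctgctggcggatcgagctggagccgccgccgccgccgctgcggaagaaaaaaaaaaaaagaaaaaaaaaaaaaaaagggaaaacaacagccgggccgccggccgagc
Gabrg1: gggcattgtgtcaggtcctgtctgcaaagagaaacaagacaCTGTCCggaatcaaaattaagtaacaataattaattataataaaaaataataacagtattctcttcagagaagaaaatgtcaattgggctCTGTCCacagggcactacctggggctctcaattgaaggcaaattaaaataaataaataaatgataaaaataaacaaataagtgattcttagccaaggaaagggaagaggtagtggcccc
No marked match overlaps another. The 4 promoters of higher genes hold the dinucleotide CpG at 27 places in Grin1, 42 in Grik3, 16 in Gria4 and 36 in Grik4. The promoter of Gabrg1, the only lower gene with an entry, holds 1 CpG and is 35.6% G or C. The median over all 32851 promoters of the table is 6 CpG, with the middle 50% of promoters between 2 and 16. Over the 28 promoters of receptor genes with at least 20 counts, the median is 12.5 CpG and the upper quartile 19.25. Gria4 is thus below the 20 of Glrb and of Grik2 and the 18 of Gabra2, genes that were not past the limit. Low numbers also occur in genes not past the limit, with 0 CpG in Gabra3 and 2 in Grin3b. Grik3 has 6 GC boxes and Grik4 has 1, and 32.7% of all promoters and 53.6% of the 28 receptor promoters hold at least 1. The right RE1 core occurs once in Grin1 and at 2 places in Gabrg1, and 18.7% of all promoters and 39.3% of the 28 receptor promoters hold it. The left core is in none of the 5 windows, and it is in 5.73% of all promoters. The TATA box is likewise in none of the 5, and in 12.4% of all promoters. These are matches of letters, and which start the cells used was not tested.

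AMPA receptor genes were the most abundant class, at 294 TPM in sum in siChd4 and 217 TPM in siSCR. Gria2, whose edited subunit makes AMPA channels nearly closed to calcium, was at 213 TPM in siChd4 against 147 TPM in siSCR. That is a TPM fold of 1.44 (1.40 to 1.48). Its count ratio per library size was 1.61, and the transcript length behind its TPM was 1.07 times longer in siChd4 relative to other genes. Gria4, a subunit with fast kinetics that is prominent in early development, was at 26.5 against 14.7 TPM (1.80-fold, 1.63 to 2.01). Gria1, a main subunit of mature excitatory synapses, was nearly level at 14.7 TPM in siChd4 against 14.6 TPM in siSCR (1.01-fold, 0.908 to 1.13). Gria3 was at 39.95 against 40.2 TPM (0.994-fold, 0.927 to 1.07), and its direction turned with the scaling. Gria2 therefore made up 72.4% of AMPA subunit TPM in siChd4 and 68.0% in siSCR.

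All 5 kainate receptor genes were higher in siChd4, and their sum was 129 TPM in siChd4 against 86.0 TPM in siSCR. Grik5, a high-affinity subunit that needs a low-affinity partner to form a channel, was at 94.3 against 63.6 TPM (1.48-fold, 1.40 to 1.57). Grik4, the other high-affinity subunit, was at 7.85 against 4.64 TPM (1.69-fold, 1.36 to 2.11), and on FPKM values plus 1 it did not pass 1.5-fold. Among the low-affinity subunits, which can form channels alone, Grik3 was at 6.82 against 2.44 TPM (2.80-fold, 2.35 to 3.34). Grik2 was at 16.7 against 12.2 TPM (1.37-fold, 1.23 to 1.53). Grik1 was at 3.53 against 3.25 TPM, and its interval of 0.794 to 1.48 includes 1. High-affinity genes summed to 102 TPM in siChd4 against 68.2 TPM in siSCR, and low-affinity genes to 27.0 TPM in siChd4 and 17.8 TPM in siSCR. Both kinds were thus higher by a like factor, 1.5-fold for high-affinity and 1.52-fold for low-affinity genes, and Grik5 stayed 3.49 times (siChd4) and 3.56 times (siSCR) as abundant as the 3 low-affinity genes together.

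NMDA receptor genes differed most unevenly. Grin1 encodes the subunit that every NMDA receptor contains, and it was at 33.4 TPM in siChd4 against 11.9 TPM in siSCR, from 1148 and 392 counts (2.81-fold, 2.51 to 3.16). It ranked 6th of the 47 genes by TPM in siChd4 and 17th in siSCR. Grin1os, annotated on the opposite strand of Grin1, was at 1.33 against 0.95 TPM. The use of strand in counting is not given, so reads of this pair cannot be told apart. The GluN2 genes, which encode the glutamate-binding subunits, were level in sum at 22.7 TPM in siChd4 against 22.5 TPM in siSCR. Grin1 was therefore at 1.47 times the GluN2 sum in siChd4 and at 0.527 times that sum in siSCR.

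Within the GluN2 genes, Grin2b, the subunit of the embryonic and early postnatal forebrain, was at 0.86 TPM in siChd4 against 2.04 TPM in siSCR, from 172 and 386 counts (0.422-fold, 0.350 to 0.505). It had the lowest fold of the 35 genes with at least 20 counts, but on the plus 1 scale it did not pass 1.5-fold on FPKM values or with the trend of transcript length subtracted. Grin2c, known from cerebellar granule cells and astrocytes, was the main GluN2 gene in both libraries, at 20.3 against 19.6 TPM (1.04-fold, 0.941 to 1.14). Grin2d, of the embryonic brainstem and of interneurons, was low at 1.24 against 0.72 TPM. It had 59.0 counts in siChd4 and 34.3 in siSCR (1.72-fold, 1.12 to 2.74). Grin2a, the subunit that increases as forebrain synapses mature, had 35.2 counts in siChd4 and 26.6 in siSCR (1.23-fold, 0.708 to 2.07). Grin3a, whose subunit binds glycine and lowers calcium entry, was as abundant as Grin1 in siChd4, at 31.9 against 23.6 TPM (1.35-fold, 1.26 to 1.45). Grin3b, its relative of motor neurons, had 16 counts in each library, to the nearest whole count. Grin1 held 37.7% of NMDA subunit TPM in siChd4 and 20.3% in siSCR.

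The delta receptors resemble glutamate-gated channels but bind serine and glycine, and they bridge synapses through cerebellins. Grid1 was at 25.7 against 20.9 TPM (1.23-fold, 1.11 to 1.37). The scaffold gene Grid2ip was at 1.99 against 1.27 TPM. It had 56.0 counts in siChd4 and 34.0 in siSCR (1.57-fold, 1.01 to 2.47).

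**Figure D2:**
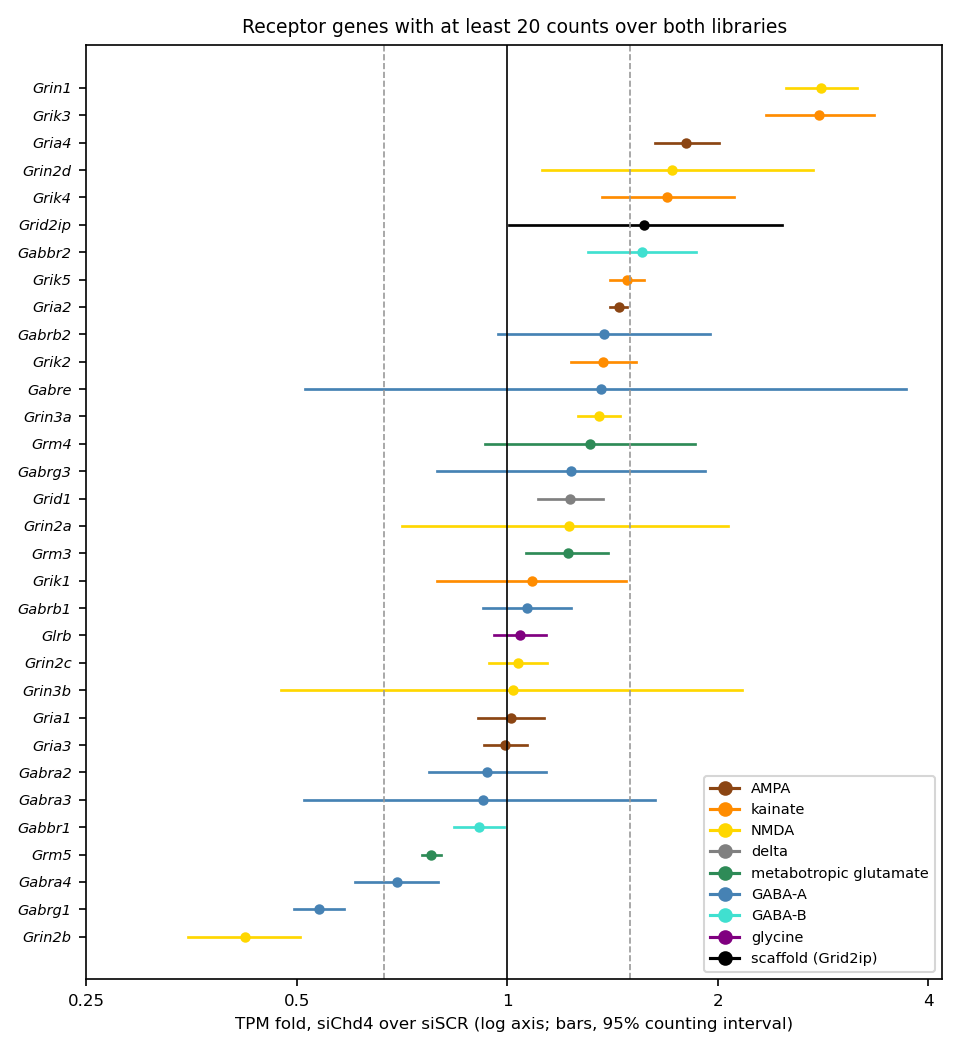
TPM fold of siChd4 over siSCR (points, log axis) with its 95% counting interval (bars) for 32 genes that had at least 20 counts over both libraries, coloured by class; dashed lines are the 1.5-fold limits. Grin1 and Grik3 stand above 2-fold with their whole intervals, and Grin2b and Gabrg1 stand furthest below 1.

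The metabotropic glutamate receptors were dominated by Grm5, a group I receptor that raises intracellular calcium and is abundant in young astrocytes. Grm5 was at 119.5 TPM in siChd4 against 153 TPM in siSCR (0.779-fold, 0.756 to 0.803). Grm5 made up 82.6% of metabotropic glutamate receptor TPM in siChd4 and 89.8% in siSCR. Grm3, a group II receptor of astrocytes and neurons that lowers cyclic AMP, was at 16.9 against 13.9 TPM (1.22-fold, 1.06 to 1.40). Grm4, a presynaptic group III receptor, was at 2.65 against 2.02 TPM, and its interval of 0.929 to 1.86 includes 1. Grm2, of group II, and the presynaptic group III genes Grm7 and Grm8 had at most 10 counts in a library.

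GABA-A receptors usually combine alpha, beta and gamma subunits, and here the main gamma gene was lower in siChd4. Gabrg1, the gamma subunit of glia and of a few brain nuclei, was at 23.3 TPM in siChd4 against 43.3 TPM in siSCR, from 894 and 1578 counts (0.538-fold, 0.495 to 0.585). Gabrg1 was the most abundant GABA-A gene in siSCR. As a share of GABA-A TPM, gamma genes made up 31.5% in siChd4 and 47.5% in siSCR. Alpha genes held 24.0% in siChd4 and 25.6% in siSCR.

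Gabra4, an alpha subunit of receptors outside synapses, was at 10.8 against 15.6 TPM (0.695-fold, 0.605 to 0.797). Gabra2, an alpha subunit of the developing forebrain, was at 6.50 against 6.95 TPM, and its interval of 0.772 to 1.14 includes 1. The beta subunit genes Gabrb1 and Gabrb2 were low. Gabrb1 was at 3.41 against 3.19 TPM (0.925 to 1.24) and Gabrb2 at 1.35 against 0.98 TPM (0.972 to 1.95), where the intervals are of the TPM fold. The intervals of these 3 genes do not separate the libraries. Gabra3, an alpha subunit of monoaminergic neurons, and the minor subunit genes Gabrg3 and Gabre lay below 1 TPM in both libraries, with folds of 0.925 (0.512 to 1.63), 1.24 (0.795 to 1.92) and 1.36 (0.513 to 3.72). Gabra5, of hippocampal receptors outside synapses, had 6 counts in siChd4 and 4 in siSCR.

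GABA-A genes lie in clusters, and neighbours did not differ alike. Gabrg1, Gabra2, Gabra4 and Gabrb1 are next to each other among the GABA-A genes of their chromosome, with TPM folds of 0.538, 0.935, 0.695 and 1.07.

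**Figure D3:**
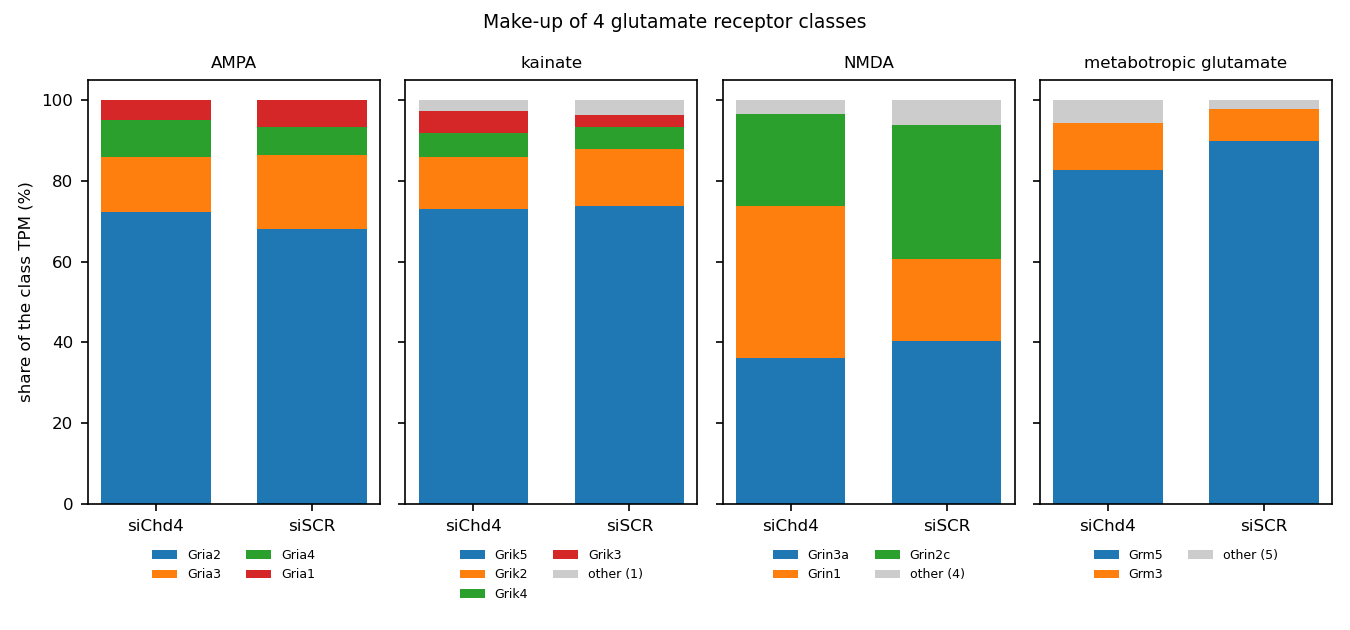
Share of each gene in the summed TPM of its class, in percent, for the AMPA, kainate, NMDA and metabotropic glutamate receptors in siChd4 (left bar of each pair) and siSCR (right bar); genes under 5% in both libraries are pooled in grey. Grin1 takes 37.7% of the NMDA class in siChd4 and 20.3% in siSCR, and Gria2 takes 72.4% of the AMPA class in siChd4 and 68.0% in siSCR.

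GABA-B receptors work only as pairs of their subunits. Gabbr1, which binds GABA, was at 30.35 TPM in siChd4 against 33.3 TPM in siSCR (0.910-fold, 0.838 to 0.988). Gabbr2, which brings the pair to the surface and couples to G proteins, was at 7.33 against 4.70 TPM (1.56-fold, 1.31 to 1.86). Gabbr1 was 4.14 times as abundant as Gabbr2 in siChd4 and 7.09 times in siSCR.

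Of the glycine receptor genes, Glrb, the beta subunit that binds the scaffold gephyrin, was the abundant member, at 45.1 against 43.2 TPM (1.04-fold, 0.958 to 1.14). The alpha subunits, which are needed to form the channel, were at the edge of detection. Glra1 had 1 count in siChd4 and 0 in siSCR, Glra3 had 0 in siChd4 and 1 in siSCR, and Glra4 had 2 in siChd4 and 6 in siSCR. A count of 0 allows up to 3 counts.

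In all, 12 of the 47 genes had fewer than 20 counts in both libraries together, with at most 15 counts in siChd4 and 6 counts in siSCR for any gene. Their counts summed to 61 in siChd4 and 27 in siSCR, and 9 of the 12 had more counts in siChd4. The same share over all genes with so few counts was not taken, so no direction is read from this. Gabrq, the theta subunit of the hypothalamus and brainstem, had the 15 counts in siChd4 and 3.01 in siSCR. The retinal rho subunit genes Gabrr1 and Gabrr2 had 1.03 and 3.97 counts in siChd4 and 2.30 and 3.70 counts in siSCR. At this depth the differences of most of these genes are not detectable.

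The genes that work with these receptors were read from 6 lists, by the same rule of 1.5-fold on the TPM plus 1 scale at a mean TPM of at least 1, under which 6.75% of all 12882 genes were higher and 4.47% lower. AMPA receptor partners had 6 higher and 1 lower gene of 15, and a median log2 ratio of 0.38. Cnih2, which takes AMPA receptors out of the endoplasmic reticulum and slows their closing, was at 95.95 against 30.8 TPM (3.12-fold, 2.75 to 3.55). Cacng5, an auxiliary subunit of the TARP family, was at 26.7 against 8.59 TPM (3.11-fold, 2.69 to 3.59). Prrt1, of native AMPA receptor complexes, was at 8.58 against 3.13 TPM, and Shisa6, which holds AMPA receptors at synapses, was lower at 12.9 against 21.1 TPM.

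Kainate and delta receptor partners had 2 higher genes of 9 and a median of 0.18. These were C1ql1 (5.46 against 1.83 TPM), a secreted ligand of synapses, and the cerebellin gene Cbln4 (2.53 against 0.67 TPM). The excitatory postsynaptic scaffold had 2 higher and 2 lower genes of 20, not far from the 6.75% higher and 4.47% lower of all genes, and a median of 0.04. Shank1, a master scaffold of dendritic spines, was at 3.54 against 0.57 TPM (6.21-fold, 4.35 to 9.21) and the adhesion gene Nlgn3 at 79.2 against 47.0 TPM. Homer2, which ties group I metabotropic receptors to calcium stores, was at 6.81 against 11.1 TPM, and the scaffold gene Dlg1 at 31.6 against 48.3 TPM.

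The inhibitory postsynaptic scaffold had 5 higher genes of 16 (6.75% of all genes), 0 lower (4.47% of all genes), and a median of 0.32. Its highest log2 ratios were those of Shisa7 (8.68 against 3.47 TPM), whose product joins GABA-A receptors and which is also on the list of AMPA partners, Lhfpl3 (105 against 52.5 TPM), a relative of the GABA-A partner Lhfpl4, and Iqsec3 (1.95 against 0.50 TPM), a gephyrin-binding exchange factor. Transmitter synthesis and vesicular loading had 0 of 9 past the limit and a median of -0.14. Its most abundant genes were Glul, the glutamine synthetase of astrocytes, at 422 against 338 TPM, and Shmt2, which makes glycine in mitochondria, at 118 against 143 TPM. Transmitter uptake and the chloride gradient had 3 higher and 1 lower gene of 12 and a median of 0.09. Slc7a10, a carrier of serine and glycine, was at 15.7 against 2.04 TPM and the glutamate transporter gene Slc1a1 at 15.6 against 7.15 TPM. The glial glutamate transporter gene Slc1a2 was lower, at 58.4 against 94.1 TPM.

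**Figure D4:**
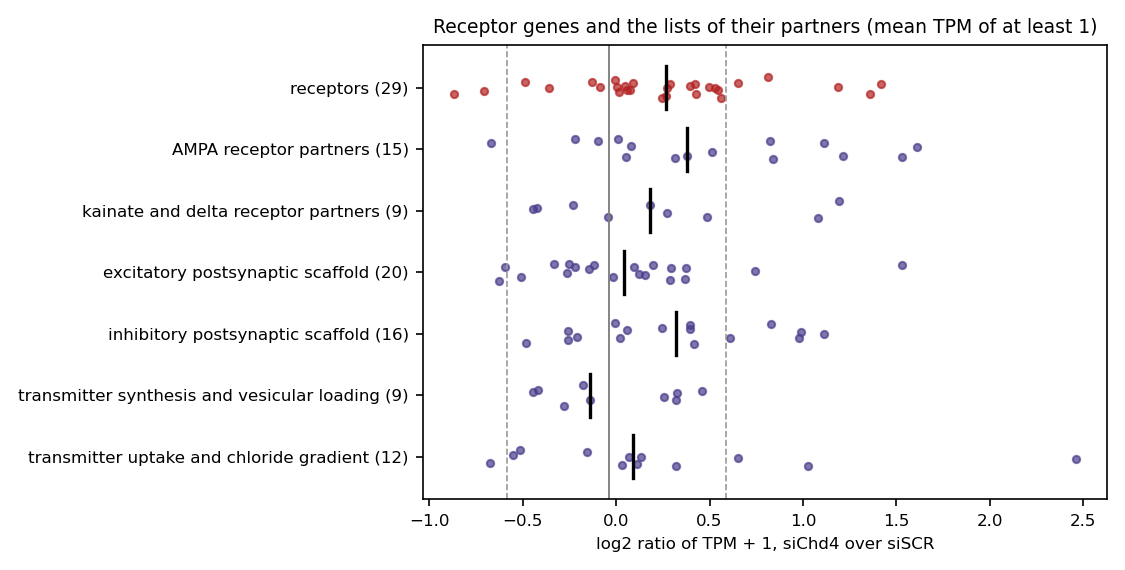
Log2 ratio of TPM plus 1, siChd4 over siSCR, of each receptor gene (red) and of each gene on the 6 partner lists (dark blue) with a mean TPM of at least 1; the number of genes follows each name. Black bars are medians, the grey line is the median of all genes (-0.04) and dashed lines are the 1.5-fold limits; the receptor median is 0.27.

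Markers of other cell types were read beside these genes, and their lists did not differ alike. Of the 14 neuron markers, 14 had a TPM fold above 1, beside 6210 of 13691 genes with at least 20 counts. The intervals of Rbfox3 (0.946 to 2.62) and Stmn2 (0.989 to 3.18) include 1. The mean TPM filter kept 13 neuron markers, and 7 passed the 1.5-fold limit upward and 0 downward (TPM plus 1). For all genes these shares were 6.75% and 4.47%. The 14 summed to 1119 TPM in siChd4 against 806 TPM in siSCR. The largest parts were Map2 (516 against 427 TPM) and Gap43 (362 against 255 TPM), neither past the limit. Of the 12 oligodendrocyte lineage markers, 10 had a mean TPM of at least 1. Of these 10, 7 were at least 1.5-fold higher and 0 lower on the TPM plus 1 scale, beside 6.75% and 4.47% of all genes. The 12 had sums of 2874 TPM in siChd4 against 2834 TPM in siSCR. The astrocyte list had 1 higher and 2 lower genes of 10, with sums of 1731 TPM in siChd4 against 2049 TPM in siSCR. Slc1a3 (878 against 1254 TPM) set the direction of that sum. Of the 10 astrocyte markers, 5 had a log2 ratio above 0 and 5 below. Of the microglia list, 6 of 8 genes were in the table and P2ry12 alone was above 1 TPM. P2ry12 was at 36.1 TPM in siChd4 against 6.84 TPM in siSCR (5.28-fold, 4.38 to 6.44). C1qa was at 0 in siChd4 and Aif1 was at 0 in siSCR. Endothelial and mural markers summed to 5.57 TPM in siChd4 against 3.56 TPM in siSCR, and muscle and fibroblast markers to 32.2 TPM in siChd4 against 14.0 TPM in siSCR. The part of these cell types in the receptor values was not tested. In bulk RNA, fewer cells of a type and less RNA per cell cannot be told apart.

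By class, the summed TPM was higher in siChd4 for all 4 ionotropic glutamate classes, at 540.0 TPM in siChd4 against 385 TPM in siSCR together. It was lower for metabotropic glutamate receptors, at 145 against 171 TPM, where Grm5 set the sum. The GABA-A sum was also lower, at 77.2 against 92.45 TPM, where Gabrg1 (23.3 against 43.3 TPM) set the direction. Of the 9 GABA-A genes with at least 20 counts, 5 had a fold above 1. The directions of these class sums were the same under each of the scalings tried. The GABA-B sum was level, at 37.7 against 38.0 TPM, with a direction that turned with the scaling, and the glycine receptor sum was 45.3 against 43.4 TPM.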

How the data were processed

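Total RNA of 2 libraries of mouse neural stem cells was sequenced. The authors deposited a table of FPKM, TPM and estimated counts per gene, per the file headers. The deposited TPM sum to 1000000 in each library, and the estimated counts are not all whole. The genome was mm39 according to the submitters' processing notes. No aligner, counting tool, strand setting or duplicate handling is named in the sources used here.

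Genes were taken by symbol patterns. The ratio of siChd4 over siSCR was taken on TPM plus a pseudocount of 1 (mean TPM of at least 1, limit 1.5-fold), and as the TPM fold with the exact interval of rounded counts (at least 20 counts). Intervals were tested on simulated data. Genes with at least 20 counts were named. From each partner list, the text names up to 3 genes per direction past the limit, by log2 ratio, or the 2 most abundant. Some genes that these rules take are not reported here. Members and lists were chosen with earlier results of these data known. Python 3.11.15, scipy 1.17.1 and edgeR 4.0.16 (TMM factors only) were used. RefSeq GRCm38.p6, not the build of the table, served for promoters and gene order. Alternatives were other units, scalings, filters, limits and a length trend.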

Additional observations from a re-analysis of the deposited data

How the results depend on the processing

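The number of receptor genes at least 1.5-fold higher on the TPM plus 1 scale was 5 of 29, beside 870 of all 12882 genes. It was 10 of 29 with the length trend subtracted, beside 968 of all 12882 genes. Gabbr2, Gria2, Grik5 and Grin3a were among those added. At a mean TPM of at least 5, where fewer genes were tested, it was 3 of 20, beside 533 of all 10884 genes. At a 2-fold limit it was 3 of 29, beside 291 of all 12882 genes. The number lower was 2. It was 1 on FPKM, 1 with the length trend subtracted and 1 at a mean TPM of at least 5, in each of which Gabrg1 was the gene left, and 0 at 2-fold. By the counting interval, 8 genes were higher, against 14 with the length trend subtracted and 3 at 2-fold, and 2 were lower, against 1 at 2-fold. The shares of all genes by the interval under these other settings are not given here. FPKM values were 0.415 of TPM in siChd4 and 0.398 in siSCR (medians of abundant genes), with the same pseudocount of 1. By the counting interval, which has no pseudocount, Gabrg1 and Grin2b were the lower genes on FPKM too. The cause of the changes with the length trend and FPKM was not tested. The median log2 ratio of 0.27 became 0.11 with no filter, which adds 18 genes of low level. Without Grid2ip, an alternative chosen after seeing the data, the numbers were 5 and 2, and 7 and 2 by the interval. Of 210 values of named genes under other settings, 191 stayed within the counting interval, and none past 1.5-fold changed sign. Among smaller differences, Gria3, Gabra2 and Grin3b changed sign with the setting. No paired analysis was possible because there was 1 library per group. For the same reason no library could be left out. Depth limits the 12 genes under 20 counts.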
